A study of Mus musculus with 6 samples.

Results

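The genes described here are 47 mouse genes for translation initiation, elongation and termination factors, grouped by the complex their proteins form or act on. Each is a row of the deposited count table whose Ensembl identifier carries the factor's symbol in the GRCm38 annotation. They are 47 of the 47729 genes in the table, and all 47 passed the filter on low counts that left 15686 genes for testing. Bulk RNA-seq was done on mouse bone marrow in 3 libraries titled cluster KO, from mice that lack the SNORD113-114 cluster of box C/D small nucleolar RNAs, and in 3 wildtype libraries. The series asks which genes differ between these genotypes, with a stated interest in stem cell self-renewal and the translation machinery. For age, sex, strain, the deletion allele and any sorting of the marrow, nothing is given in the sources used here. The series design speaks of 3 mice per genotype, yet the labels do not link libraries to animals. P-values below therefore measure the spread between libraries, which may be technical.

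In eukaryotes, translation usually starts when eIF4F (the cap-binding protein eIF4E, the scaffold eIF4G and the helicase eIF4A) recruits the small ribosomal subunit to the capped end of an mRNA. That subunit already carries eIF3 and the eIF2 complex, which brings the initiator methionyl-tRNA, and eIF2B recharges eIF2 with GTP after each round. eEF1 then delivers aminoacyl-tRNAs, eEF2 moves the ribosome along the codons, and eRF1 with eRF3 releases the chain, while protein output of blood stem cells is known to be held low. Every value here is an RNA level, not an amount or activity of protein.

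Short stretches of promoter are shown first, because the risers described below include Eif4a1, Eif4e and Eif5a, whose RefSeq promoters carry the E-box CACGTG that MYC and related factors can bind, as do those of Eif3f and Eif4g1, which fell. The letters are from the gene's own strand of GRCm38.p6, 5′ to 3′, with the E-box in capitals.
Eif4a1, chr11:69672595-69672624, minus strand: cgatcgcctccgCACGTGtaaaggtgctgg
Eif4e, chr3:138527028-138527057, plus strand: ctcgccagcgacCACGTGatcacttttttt
Eif4e, chr3:138527192-138527221, plus strand: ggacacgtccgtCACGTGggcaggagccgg
Eif5a, chr11:69921443-69921472, minus strand: aaggggcggggtCACGTGtgtgcgtcatcc
Eif5a, chr11:69920791-69920820, minus strand: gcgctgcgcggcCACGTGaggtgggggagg
Eif3f, chr7:108934335-108934364, plus strand: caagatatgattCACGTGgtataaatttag
Eif4g1, chr16:20672661-20672690, plus strand: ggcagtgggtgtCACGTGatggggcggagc
The RefSeq table held promoters for 35 of the 47 factor genes. In the 250 bases before each start, on both strands, CACGTG was present in 9 of these 35 (25.7%) and in 6.9% of all 27025 genes in that table. By direction of change it was in 3 of 8 risers, 2 of 11 fallers and 4 of 16 genes without a call, so it was not restricted to either direction. The ETS motif CCGGAAG was in 25.7% of the factor promoters against 7.8% of all, the GC box GGGCGG in 68.6% against 35.4%, the NRF1 motif in 2.9% against 0.9%, and the CRE TGACGTCA in 0 of 35 against 1.8%. The comparison genes include those without reads here, and a gene with several starts counted if any of its windows matched. These shares are thus not matched for expression, base content or number of windows. No sites of different motifs overlapped, and a match of letters is a description of the window, not a binding site.

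Too few reads fell in the deleted region to check the deletion: Rian, the host transcript of the region, had 18 reads in all cluster KO and 54 in all wildtype libraries, and the 23 small nucleolar RNA genes from Rian to the end of Mirg had 0 and 1. Library totals ran from 17663369 to 23459168 gene counts, and levels below are normalised read counts (CPM, on scaled library totals). Between the genotypes the libraries also differed in other ways. Reads with more than 1 alignment, which were not assigned to genes, were 13.38 to 14.68% in cluster KO and 16.12 to 16.81% in wildtype. Reads of ribosomal RNA genes, nuclear and mitochondrial together, were 0.251 to 0.614% against 0.998 to 1.44% of gene counts. Reads of all mitochondrially encoded genes were 1.46 to 2.17% against 2.72 to 3.06%. Of the markers listed for each cell type, 7 of 10 for the B lineage rose (summed level 1967 to 2084 against 614 to 656 CPM) and 0 fell, 4 of 12 for neutrophils rose (10843 to 20621 against 6404 to 12094 CPM) and 0 fell, and 2 of 6 for monocytes rose and 0 fell (80.1 to 89.0 against 42.9 to 55.7 CPM). Of the erythroid markers 5 of 10 fell (862 to 1083 against 1144 to 1566 CPM) and 0 rose, and of the megakaryocyte markers 3 of 6 fell and 1 rose (267 to 275 against 406 to 507 CPM). Of the T and NK cell markers 2 of 6 rose and 0 fell (484 to 606 against 401 to 496 CPM), and of the stem and progenitor markers 4 of 8 rose and 1, Kit, fell (1198 to 1208 against 1026 to 1039 CPM). Of the stroma markers 2 of 4 had enough reads to test, without a call (9.71 to 104 against 2.81 to 33.3 CPM). The part of these differences in the changes of factor genes was not tested, and fewer cells of a type and less RNA per cell cannot be told apart in such samples. Beside the marker counts, 15.9% of all genes tested rose and 12.1% fell.

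Translation factor genes moved in both directions in cluster KO marrow. By edgeR's quasi-likelihood test with Benjamini-Hochberg adjustment over all genes, at a threshold of 0.05, 8 of the 47 rose and 14 fell. These 22 are 46.8% of the factor genes, against 27.9% called among all genes tested, where 15.9% rose and 12.1% fell. The members' median log2 fold change was -0.12, against 0.0024 for all genes, and the range ran from -1.04 (Eef1b2) to 1.17 (Eif5a). All factor genes together took 2.015 ± 0.0182% (SD, n = 3) of gene counts in cluster KO and 2.101 ± 0.0601% (SD, n = 3) in wildtype libraries. Libraries of the genotypes did not overlap for 34 factor genes, 11 higher and 23 lower, where 46.0% of all tested genes had no overlap.

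**Figure D1:**
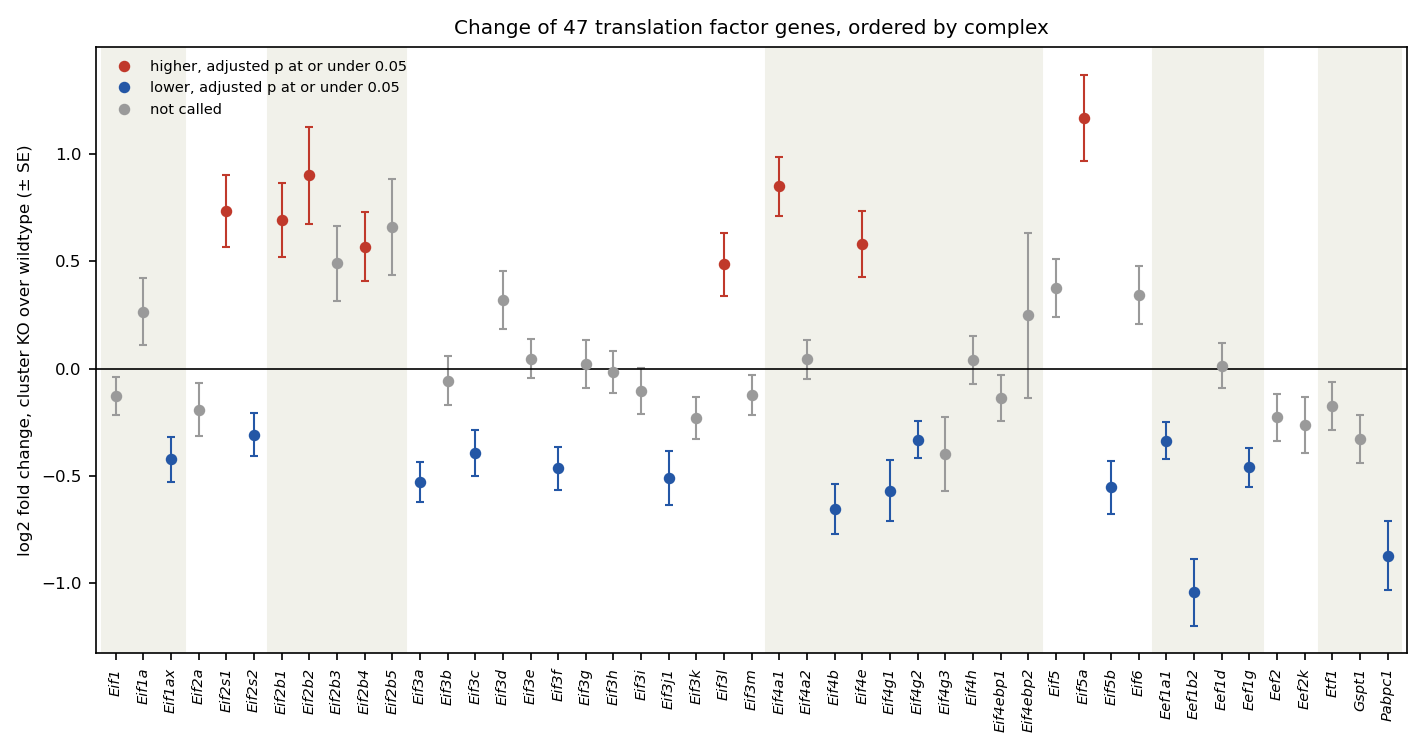
Log2 fold change of cluster KO over wildtype for each of the 47 factor genes, with its SE as the bar, ordered by complex (shaded blocks). Red points passed the test upward (8 genes, Eif5a highest at 1.17), blue points downward (14 genes, Eef1b2 lowest at -1.04), and grey points did not pass.

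Within the cluster KO group the size of the shift differed between libraries. In 8 of 8 risers and 13 of 14 fallers the library nearest to wildtype was cluster KO replicate 1, and in 8 of 8 and 11 of 14 the farthest was replicate 3. The same libraries had 0.614% and 0.251% of their gene counts on nuclear and mitochondrial ribosomal RNA genes together. They had 2.17% and 1.46% on all mitochondrially encoded genes, and 14.68% and 13.38% multiply aligned reads. Wildtype libraries differed in order too, with these ribosomal RNA genes at 0.998, 1.08 and 1.44% in replicates 1, 2 and 3. In the same replicates mitochondrially encoded genes were at 2.77, 2.72 and 3.06%. From replicate 1 to 3 of wildtype, Eif5a went down (1496, 1213 and 816 CPM) and Eef1b2 up (1022.5, 1117 and 1323 CPM). Not every called gene did so, as Eef1a1 was at 4146, 4146 and 4020 CPM. A graded effect of the genotype is therefore not shown, and these orders were not counted over all genes. The link between these orders and the read shares was not tested.

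**Figure D2:**
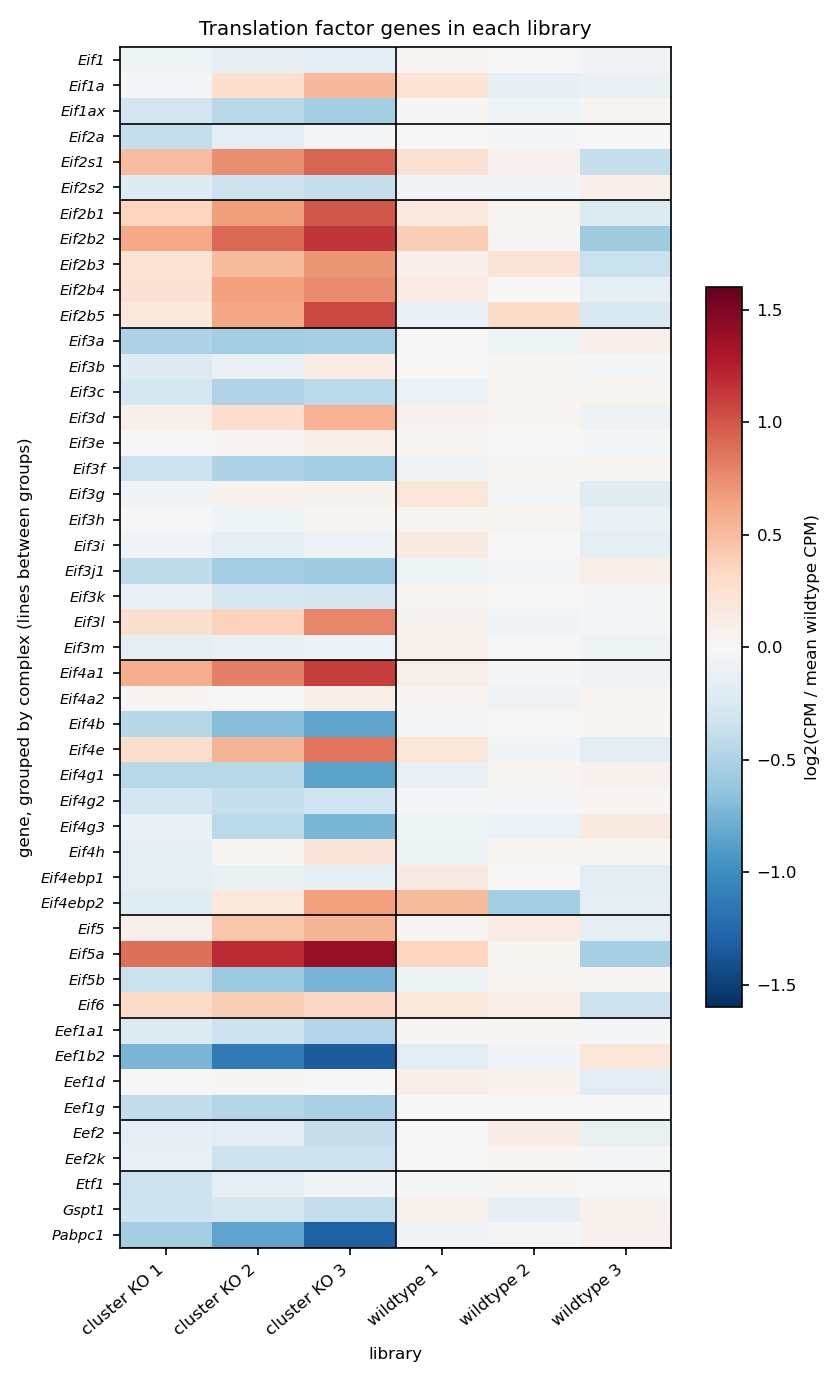
Level of each factor gene (rows, grouped by complex) in each library (columns), as log2 of its CPM over the mean wildtype CPM. Red is higher and blue lower than the wildtype mean, and for most called genes the colour is palest in cluster KO 1 and deepest in cluster KO 3 of that group.

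Among the factors that scan for the start codon, 1 of 3 passed the test, 33.3% against 27.9% of all genes tested. The median log2 fold change was -0.13. Eif1ax on the X chromosome (159372178 to 159389928) encodes eIF1A, which helps the small subunit scan and settle on the start codon. It was at 321, 292 and 272 CPM in cluster KO and at 399.9, 378 and 408 CPM in wildtype libraries, with no overlap (log2 fold change -0.42, SE 0.10, edgeR adjusted p = 0.0146). Its autosomal copy Eif1a did not pass, at 202, 246 and 297 against 239.7, 189 and 191 CPM, and its libraries overlapped (0.26, SE 0.16, edgeR adjusted p = 0.232). The Eif1a to Eif1ax ratio within a library was 0.629, 0.843 and 1.09 in cluster KO and 0.599, 0.499 and 0.469 in wildtype, a log2 difference of 0.68 with an exact two-sided permutation p = 0.1, the smallest that 3 against 3 libraries allow (0.12 adjusted over 6 ratios). Eif1, the scanning factor that opposes wrong start sites, had the highest level per transcript length of these, 637 CPM per kilobase in wildtype. Its values were 806, 767 and 741 against 866, 844 and 816 CPM, lower in every cluster KO library without passing the test (-0.13, SE 0.09, edgeR adjusted p = 0.31). Eif1ax lost its call without cluster KO replicate 2 or wildtype replicates 2 or 3 (edgeR adjusted p 0.0525 to 0.074). Once length and GC trends were removed its log2 fold change was -0.08 and the Eif1a to Eif1ax log2 difference 0.08.

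The genes of the eIF2 trimer, which delivers the initiator tRNA, went in opposite directions. Eif2s1 (chromosome 12, 78861819 to 78887010), the alpha subunit whose phosphorylation slows initiation under stress, was at 386, 458 and 525 CPM in cluster KO against 325, 288 and 210.1 CPM in wildtype libraries. It rose with a log2 fold change of 0.73 (SE 0.17, edgeR adjusted p = 0.0114), and the lowest cluster KO library stood above the highest wildtype one. Eif2s2 (chromosome 2, 154871410 to 154892935), the tRNA-contacting beta subunit, was at 302, 275 and 269.7 against 340.0, 338 and 371 CPM. It fell, again without overlap (log2 fold change -0.31, SE 0.10, edgeR adjusted p = 0.0456). Eif2a, which despite its name is a separate initiator tRNA-binding protein outside the trimer, did not pass at -0.19 (SE 0.12, edgeR adjusted p = 0.269), and Serp1 overlaps it on the opposite strand. The Eif2s2 call was lost without any single library other than cluster KO replicate 1 (edgeR adjusted p 0.0908 to 0.172), with unscaled library totals (0.0652) and without a filter on low counts (0.121).

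The gamma subunit, which binds GTP, has an X copy and a Y copy in mice, and neither is among the 47. They complete the trimer and were taken from a list of further translation factors, while the sex-linked genes below were looked up after their values had been seen. Eif2s3x was at 133, 111 and 121 CPM in cluster KO and at 244, 237 and 252 CPM in wildtype libraries (log2 fold change -1.01, SE 0.11, edgeR adjusted p = 0.00113). Eif2s3y was at 108, 138 and 165 against 21.4, 15.3 and 33.2 CPM, a log2 fold change of 2.56 (SE 0.27, edgeR adjusted p = 0.000861). The copies went opposite ways without overlap, and their sum was 259 ± 24.0 CPM in cluster KO and 268 ± 16.5 CPM in wildtype (SD, n = 3 each), a ratio of 0.967. The Y copy gave 52.6% of that sum in cluster KO and 8.58% in wildtype. Xist, the RNA of the inactive X, was at 1.92, 0.0842 and 1.58 CPM against 228, 249 and 248 CPM, and the Y-linked Ddx3y at 77.8, 87.2 and 100.3 against 27.9, 18.2 and 21.4 CPM. The wildtype libraries thus held RNA of Xist and of Y-linked genes, and the cluster KO libraries Y-linked RNA with almost no Xist, so for every gene compared here, autosomal ones included, the genotype and the sex composition of the libraries cannot be told apart. Eif2s3x, Eif2s3y and Eif1ax are themselves sex-linked.

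**Figure D3:**
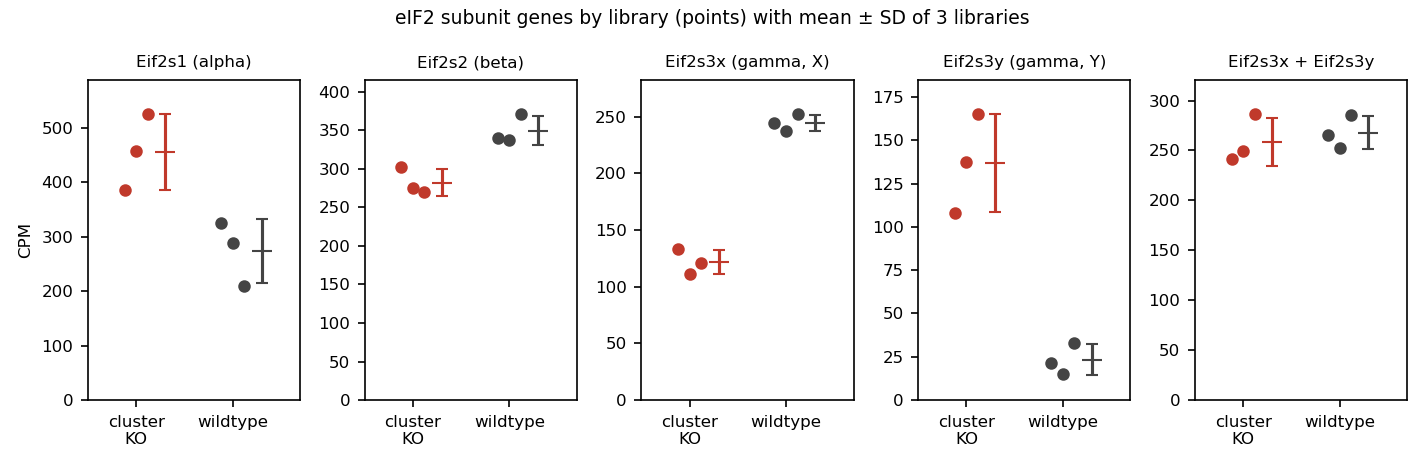
CPM of the eIF2 subunit genes in each library (points), with mean and SD of 3 libraries per genotype beside them and axes from 0. Eif2s1 is higher and Eif2s2 lower in cluster KO, Eif2s3x and Eif2s3y go opposite ways, and the sum of the gamma copies overlaps between genotypes (259 against 268 CPM).

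All 5 genes of eIF2B, the complex that reloads eIF2 with GTP, had positive log2 fold changes, with a median of 0.66. The test was passed by 3 of 5, 60% against 27.9% of all genes tested. Eif2b1 (chromosome 5, 124570213 to 124579131), the alpha subunit of the regulatory part that senses phosphorylated eIF2, was at 165, 207 and 259.8 CPM in cluster KO against 145, 134 and 112 CPM in wildtype (log2 fold change 0.69, SE 0.17, edgeR adjusted p = 0.0151). Eif2b2 (chromosome 12, 85219481 to 85226628), the beta subunit, was at 108, 132 and 155 against 92.8, 71.2 and 47.4 CPM (0.90, SE 0.23, edgeR adjusted p = 0.0164). Eif2b4 (chromosome 5, 31187558 to 31193430), the delta subunit, was at 78.4, 106 and 114 against 73.8, 67.1 and 60.4 CPM (0.57, SE 0.16, edgeR adjusted p = 0.0253). In each of these the genotypes did not overlap, although cluster KO replicate 1 lay close above wildtype replicate 1. The catalytic epsilon subunit Eif2b5 was just short of the threshold with overlapping libraries, at 62.6, 85.9 and 116 against 51.8, 68.5 and 47.2 CPM (0.66, SE 0.22, edgeR adjusted p = 0.0503). The gamma subunit Eif2b3 did not overlap and also fell short, at 82.5, 101 and 115 against 75.0, 81.9 and 55.4 CPM (0.49, SE 0.18, edgeR adjusted p = 0.0606). Eif2b4 shares its locus with Snx17 on the opposite strand, which rose by a log2 fold change of 0.88 (edgeR adjusted p = 0.00534), and the reads carry no strand.

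The number of eIF2B genes called went from 0 to 5 with the processing. It was 0 without cluster KO replicate 2, wildtype replicate 2 or wildtype replicate 3, where Eif2b1, Eif2b2 and Eif2b4 had edgeR adjusted p values of 0.051 to 0.105, and Eif2b4 was also lost without cluster KO replicate 3. It was 5 without cluster KO replicate 1, with DESeq2, with unscaled library totals, without a filter and with a minimum count of 50, 4 with RLE scaling, and 1, Eif2b1, once length and GC trends were removed, where the median log2 fold change was 0.39.

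The eIF3 genes, which build the large scaffold on the small ribosomal subunit, went both ways: 1 of 13 rose, 4 fell and 8 did not pass. Their called share was 38.5%, against 27.9% of all genes tested, and their median log2 fold change was -0.10. Eif3a (chromosome 19, 60761117 to 60790658), the largest scaffold subunit, was at 407, 391 and 397 CPM in cluster KO against 571, 548 and 607 CPM in wildtype (log2 fold change -0.53, SE 0.09, edgeR adjusted p = 0.00431). Its close partner Eif3c (chromosome 7, 126546455 to 126566411) was at 228, 199 and 205 against 261, 285 and 286 CPM (-0.39, SE 0.11, edgeR adjusted p = 0.0211). Both fell without overlap of the libraries.

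Eif3f (chromosome 7, 108934417 to 108942951), a subunit of the same core, was at 357, 321 and 308 against 435, 459 and 468 CPM, a log2 fold change of -0.46 (SE 0.10, edgeR adjusted p = 0.00909). Eif3j1 (chromosome 2, 122028546 to 122056598), the loosely bound subunit that reaches the decoding site, was at 56.1, 50.5 and 50.3 against 71.0, 72.5 and 79.7 CPM (-0.51, SE 0.13, edgeR adjusted p = 0.0157). Eif3l (chromosome 15, 79075179 to 79094405), another core subunit, went the other way, at 167, 181 and 242 against 146, 137 and 138 CPM (0.49, SE 0.15, edgeR adjusted p = 0.0325). The genotypes did not overlap in any of these. The subunit with the highest level per length was Eif3k at 639 CPM per kilobase in wildtype, with 457, 407 and 402 against 508, 494 and 482 CPM and no call (-0.23, SE 0.10, edgeR adjusted p = 0.103).

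The other eIF3 genes without a call were Eif3b, Eif3d, Eif3e, Eif3g, Eif3h, Eif3i and Eif3m, with log2 fold changes from -0.12 (Eif3m) to 0.32 (Eif3d). Of these, Eif3d was higher and Eif3m lower in every cluster KO library, and the other 5 overlapped. Eif3a kept its call without any single library, while Eif3c, Eif3f, Eif3j1 and Eif3l each lost theirs without cluster KO replicate 2 or wildtype replicate 2, Eif3c and Eif3j1 also without wildtype replicate 3, and Eif3l also without wildtype replicate 1 or 3 or cluster KO replicate 3, where its log2 fold change was 0.31 (edgeR adjusted p 0.0506 to 0.114 over these fits). With length and GC trends removed Eif3a was at -0.26 and kept its call, Eif3j1 at -0.22 and Eif3l at 0.15 lost theirs, and Eif3h (-0.26) and Eif3i (-0.27) passed downward.

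The genes around the mRNA cap divided, with 2 of 10 higher, 3 lower and 5 not called. Together 50% were called, against 27.9% of all genes tested, and the median log2 fold change was -0.05. Eif4a1 (chromosome 11, 69666936 to 69672423), the main helicase of eIF4F, was at 347, 406 and 499 CPM in cluster KO against 247, 226 and 221 CPM in wildtype (log2 fold change 0.85, SE 0.14, edgeR adjusted p = 0.0033). Eif4e (chromosome 3, 138526179 to 138559696), which holds the cap, was at 484, 580.1 and 724 against 456, 385 and 354 CPM (0.58, SE 0.15, edgeR adjusted p = 0.0198). Both rose and their libraries did not overlap, with the smaller gap in Eif4e.

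Eif4b (chromosome 15, 102073773 to 102097173), which stimulates the helicase, fell to 269.6, 232 and 206 CPM from 363, 370.3 and 381 CPM (log2 fold change -0.65, SE 0.12, edgeR adjusted p = 0.00465). Eif4g1 (chromosome 16, 20668313 to 20692884), the scaffold that joins cap, helicase and eIF3, was at 74.7, 75.2 and 56.3 against 94.2, 105 and 107 CPM (-0.57, SE 0.14, edgeR adjusted p = 0.0166). Eif4g2 (chromosome 7, 111067750 to 111083030), a scaffold that lacks the eIF4E-binding region, was at 718, 686 and 709 against 876, 874 and 909.8 CPM (-0.33, SE 0.09, edgeR adjusted p = 0.0183). These 3 fell in every cluster KO library below every wildtype library. The third scaffold gene, Eif4g3, was lower without overlap but did not pass (-0.40, SE 0.17, edgeR adjusted p = 0.111), and Eif4h, a cofactor of the helicase, was at 0.04 (SE 0.11, edgeR adjusted p = 0.824).

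The helicase paralogue Eif4a2 was at 471, 458 and 491 against 464, 442 and 472 CPM, overlapping and without a call (log2 fold change 0.04, SE 0.09, edgeR adjusted p = 0.76). Its 5 small nucleolar RNA genes lie within it, and Rfc4 on the opposite strand overlaps it in part. Small nucleolar RNA genes also lie within Eef1b2 (3), Eif4a1 (3), Eif3a (2), and Eif4g1, Eif4g2, Eif5 and Eef2 (1 each). On the opposite strand Ndufs1 overlaps Eef1b2 and Rev1 overlaps Eif5b, neither called (log2 fold changes 0.31 and -0.13). The Eif4a1 to Eif4a2 ratio was 0.736, 0.885 and 1.02 in cluster KO against 0.532, 0.512 and 0.469 in wildtype. It did not overlap (log2 difference 0.79, exact two-sided permutation p = 0.1, adjusted 0.12). Because Eif4a1 separated by more than Eif4a2 varied over all libraries, this separation and its p were fixed beforehand and add no support. Of the repressors that hold eIF4E back, Eif4ebp1 was at 308, 316 and 304 against 376, 342 and 301 CPM (-0.14, SE 0.11, edgeR adjusted p = 0.374). Eif4ebp2 was scarce at 2.60, 3.32 and 4.69 against 4.21, 2.04 and 2.66 CPM (0.25, SE 0.38, edgeR adjusted p = 0.66), so a change of moderate size in it was not detectable. The Eif4ebp1 to Eif4ebp2 ratio overlapped (log2 difference -0.41, exact two-sided permutation p = 0.5). The Eif4ebp1 to Eif4e ratio, repressor to target, was 0.635, 0.545 and 0.420 against 0.826, 0.890 and 0.852, lower in every cluster KO library (log2 difference -0.70, exact two-sided permutation p = 0.1, adjusted 0.12).

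Eif4a1 and Eif4b kept their calls without any single library, Eif4e lost its call without cluster KO replicate 2 or 3 or wildtype replicate 2 or 3, Eif4g1 without wildtype replicate 2 or 3, and Eif4g2 without cluster KO replicate 2 or any wildtype replicate (edgeR adjusted p 0.052 to 0.104) and also without a filter on low counts (0.0512). With length and GC trends removed Eif4a1 was at 0.54 and Eif4g1 at -0.37, both still called, Eif4g2 was at -0.03 without a call, Eif4ebp1 passed downward at -0.41, and the Eif4ebp1 log2 difference was -1.20 to Eif4e and -0.72 to Eif4ebp2.

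Among the factors of subunit joining and release, 1 of 4 rose and 1 fell, 50% called against 27.9% of all genes tested. Their median log2 fold change was 0.36. Eif5a (chromosome 11, 69916714 to 69921958) encodes the hypusine-carrying factor that helps the ribosome through difficult peptide bonds. It was at 2156, 2678 and 3087 CPM in cluster KO against 1496, 1213 and 816 CPM in wildtype libraries, the largest rise of the 47 (log2 fold change 1.17, SE 0.20, edgeR adjusted p = 0.00402). The groups did not overlap, and both spread widely. Per transcript length the wildtype mean of Eif5a was second to that of Eef1a1, at 915 against 2288 CPM per kilobase. In cluster KO the order of these levels differed between libraries: Eif5a was at 1679.8, 2086 and 2405 CPM per kilobase and Eef1a1 at 1968, 1813 and 1651, so that Eif5a was the lower in replicate 1 and the higher in replicates 2 and 3. Eif5b (chromosome 1, 37998010 to 38055579), the GTPase that joins the ribosomal subunits, fell without overlap, at 213, 179 and 162 against 257, 278 and 279 CPM (-0.55, SE 0.12, edgeR adjusted p = 0.00992). Eif5, which makes eIF2 hydrolyse its GTP, was at 364, 468 and 502 against 347, 375 and 307 CPM, overlapping and without a call (0.37, SE 0.14, edgeR adjusted p = 0.064). Eif6, which keeps free large subunits apart from small ones, was higher in every cluster KO library and also not called (0.34, SE 0.14, edgeR adjusted p = 0.0841). Eif5a kept its call without any single library, and Eif5b lost it without cluster KO replicate 2 or wildtype replicate 2 (edgeR adjusted p 0.0557 and 0.0506). After removal of length and GC trends Eif5a was at 0.90 and Eif5b at -0.22, the latter without a call, while Eif5 passed at 0.52.

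Of the eEF1 genes 3 of 4 fell and 0 rose, 75% called against 27.9% of all genes tested. Their median log2 fold change was -0.40. Eef1b2 (chromosome 1, 63176825 to 63180486), a nucleotide exchange factor that recharges eEF1A, had the largest drop of the 47, at 694, 527 and 460.3 CPM in cluster KO against 1022, 1117 and 1323 CPM in wildtype (log2 fold change -1.04, SE 0.16, edgeR adjusted p = 0.00277). Eef1g (chromosome 19, 8967041 to 8978479), the gamma subunit of that exchange complex, was at 442, 420.1 and 405 against 577, 582 and 585 CPM (-0.46, SE 0.09, edgeR adjusted p = 0.00643). Eef1a1 (chromosome 9, 78478449 to 78489151), the tRNA carrier itself and the most abundant of the 47 in CPM, was at 3531, 3253 and 2961 against 4146, 4146 and 4020.2 CPM (-0.34, SE 0.09, edgeR adjusted p = 0.0176). In these 3 every cluster KO library lay below every wildtype library, whereas Eef1d, another exchange subunit, overlapped at 363, 368 and 359.9 against 385, 376 and 319.9 CPM (0.01, SE 0.11, edgeR adjusted p = 0.941).

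The Eef1b2 to Eef1a1 ratio was 0.196, 0.162 and 0.155 in cluster KO and 0.247, 0.269 and 0.329 in wildtype. The exchange factor was thus lower relative to its partner in every cluster KO library (log2 difference -0.71, exact two-sided permutation p = 0.1, adjusted 0.12). Because Eef1b2 separated by more than Eef1a1 varied over all libraries, this separation and its p were also fixed beforehand and add no support. Eef1a1 lost its call without cluster KO replicate 2 or wildtype replicate 1 or 2 (edgeR adjusted p 0.0563 to 0.0912). After removal of length and GC trends Eef1a1 was at -0.63, Eef1g at -0.80 and Eef1d passed downward at -0.36.

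Neither eEF2 gene passed the edgeR test, in which their unadjusted p values were 0.0605 and 0.0706, nor did either pass with DESeq2. Eef2, the translocase, was at 556, 541 and 473 CPM in cluster KO against 608, 668 and 562 CPM in wildtype (log2 fold change -0.23, SE 0.11, edgeR adjusted p = 0.14). Eef2k, the kinase that inhibits it, was at 52.7, 45.7 and 45.3 against 57.0, 58.5 and 56.9 CPM (-0.26, SE 0.13, edgeR adjusted p = 0.157). Both were lower in every cluster KO library. The Eif5a to Eef2 ratio was 3.88, 4.95 and 6.53 in cluster KO and 2.46, 1.82 and 1.45 in wildtype (log2 difference 1.42, exact two-sided permutation p = 0.1, adjusted 0.12). With Eif5a higher and Eef2 lower in every cluster KO library, this separation and its p were fixed beforehand and add no support.

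Of the termination factors and the poly(A)-binding protein 1 of 3 fell, 33.3% called against 27.9% of all genes tested. Pabpc1 (chromosome 15, 36595661 to 36609668), which coats the poly(A) tail and contacts eIF4G, was at 936, 766 and 559 CPM in cluster KO against 1335, 1352 and 1451 CPM in wildtype (log2 fold change -0.87, SE 0.16, edgeR adjusted p = 0.00499). The genotypes did not overlap, and the call held without any single library. Gspt1, the GTPase eRF3, was lower in every cluster KO library but just short of the threshold, at 131, 137 and 127 against 173, 151 and 172 CPM (-0.33, SE 0.11, edgeR adjusted p = 0.0513). Etf1, the stop codon reader eRF1, was at -0.17 (SE 0.11, edgeR adjusted p = 0.274).

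Some factor mRNAs begin with a pyrimidine tract, the 5′ TOP element that mTORC1 and LARP1 act on, as cytosolic ribosomal protein mRNAs do. Of the 11 factor genes known as TOP mRNAs 7 fell, 0 rose and 4 did not pass, with a median log2 fold change of -0.46. Among all genes tested 12.1% fell and 15.9% rose. The 7 are Eef1a1, Eef1b2, Eef1g, Eif3a, Eif3f, Eif4b and Pabpc1, and Eef1d, Eef2, Eif3e and Eif3h did not pass. Of the other 36 factor genes 8 rose, 7 fell and 21 did not pass, with a median of -0.02. Among 80 cytosolic ribosomal protein genes tested 76 fell and 1, Rpl3l, rose, with a median of -0.86. Such genes and Eef1a1 have many near-identical pseudogene copies, and since multiply aligned reads were not assigned and differed between the genotypes, their levels are uncertain. Copies of the other factor genes were not examined, so the same limit may hold for them. Once length and GC trends were removed 9 of the 11 fell and 0 rose, with a median of -0.62, against 6 higher and 7 lower of the other 36 and a median of -0.08.

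**Figure D4:**
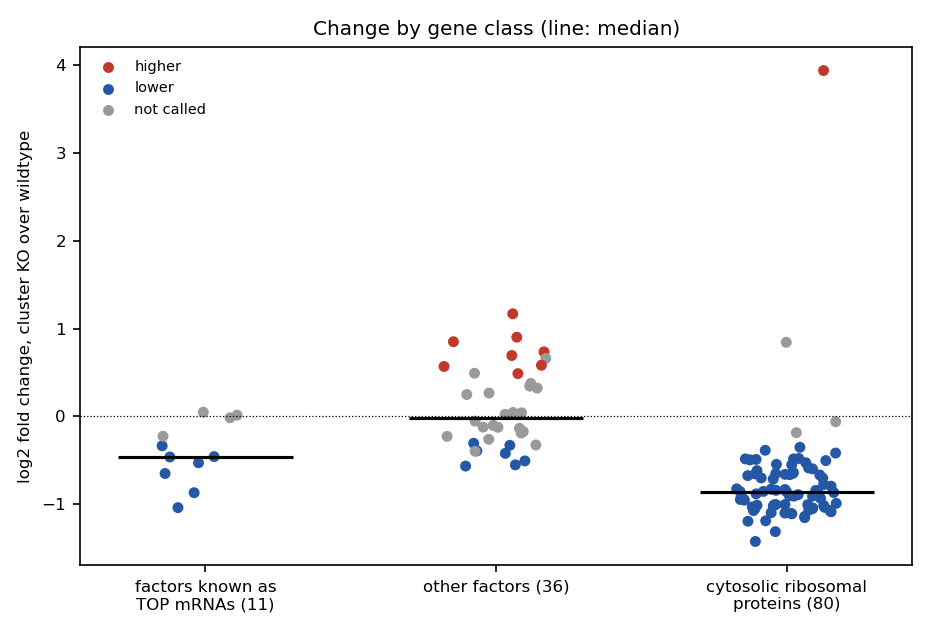
Log2 fold change of cluster KO over wildtype for the 11 factor genes known as TOP mRNAs, the other 36 factor genes and 80 cytosolic ribosomal protein genes (1 point per gene, black line at the median). The medians are -0.46, -0.02 and -0.86; the point near 4 is Rpl3l, a gene with few reads.

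Fold changes in this comparison varied with transcript length over all genes. Over 10 equal groups of genes by length the median log2 fold change was -0.40 in the shortest group, 0.43 in the fourth (1662 to 2037 bases) and -0.32 in the longest (5268 bases and over). Of the factor genes 9 lie in the fourth group, among them the risers Eif4a1, Eif2b1, Eif2b4 and Eif3l, and 5 in the longest, among them the fallers Eif4g1, Eif4g2, Eif5b and Eif3j1. Against that pattern Eif4e, in the shortest group by its annotated 792.5 bases, rose, and Eef1a1 and Eef1g, in the fourth group, fell. With smooth trends on length and GC content removed from each library 15 of the 22 calls held, 7 were lost and 7 other genes passed. The lost calls were Eif1ax, Eif2b2, Eif2b4, Eif3j1, Eif3l, Eif4g2 and Eif5b. Those gained were Eif5 upward and Eif1, Eif2a, Eif3h, Eif3i, Eif4ebp1 and Eef1d downward.

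**Figure D5:**
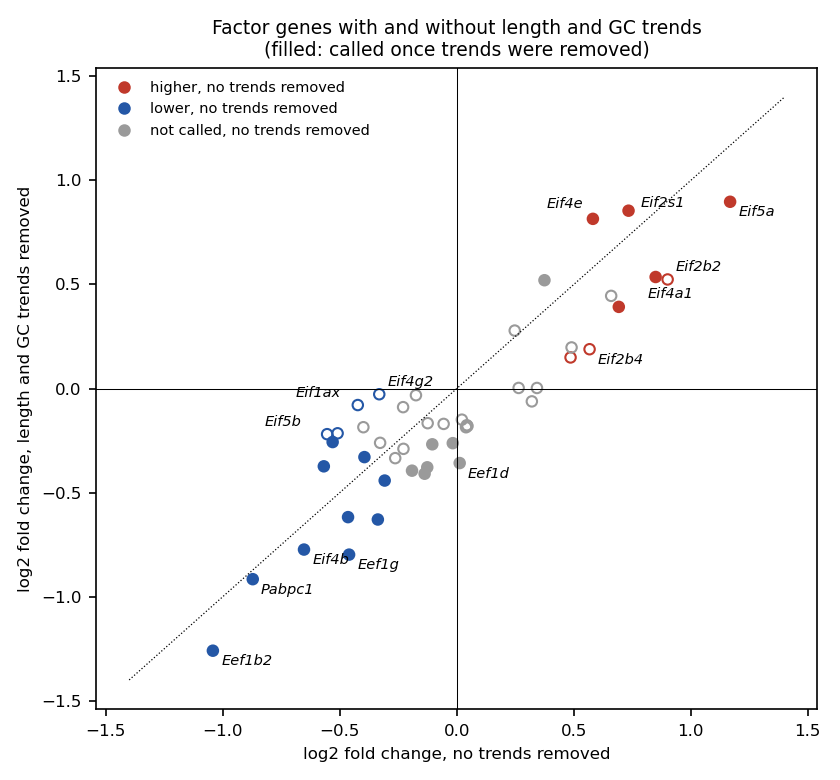
Log2 fold change of each factor gene as reported (horizontal) and with length and GC trends removed (vertical), with a dotted line of equality. Colour gives the call without trend removal and a filled point a call with it: 15 of 22 calls held, Eef1b2, Pabpc1 and Eif5a stay at the ends, and Eif1ax and Eif4g2 move close to 0.

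Across the 14 other ways of processing that were run, 6 of the 22 calls held in each: Eif4a1 and Eif5a upward and Eif4b, Eef1b2, Eef1g and Pabpc1 downward. Eif2s1 and Eif3a also held without any single library. All 22 kept their direction in every one of these fits.

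Other genes of the translation machinery, listed by role, also went both ways. Of 25 further translation factors tested 5 rose and 6 fell, together 44% against 27.9% called among all genes tested. Eif4a3, the helicase of the exon junction complex, was at 397, 476 and 521 CPM against 293, 288 and 228 CPM, a log2 fold change of 0.78 (SE 0.14, edgeR adjusted p = 0.00426). Pdcd4, a protein that blocks eIF4A, was at 52.8, 60.3 and 70.0 against 102, 100.4 and 99.6 CPM (-0.72, SE 0.13, edgeR adjusted p = 0.00511). The helicase gene Eif4a1 and its inhibitor thus went opposite ways, each without overlap.

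Of 8 genes for eIF2 kinases and their counterparts 1 rose and 2 fell, together 37.5% against 27.9% of all genes tested. Ppp1r15a, an adaptor that brings a phosphatase to eIF2 alpha, rose by a log2 fold change of 0.77 (SE 0.20, edgeR adjusted p = 0.018), and its constitutive relative Ppp1r15b was at -0.57 (SE 0.18, edgeR adjusted p = 0.0436). Gcn1l1, which activates the kinase GCN2, was at -0.76 (SE 0.18, edgeR adjusted p = 0.0128). None of the 4 eIF2 kinase genes passed, and Atf4, the transcription factor whose translation rises when eIF2 is phosphorylated, was at 0.07 (SE 0.10, edgeR adjusted p = 0.644).

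Of 12 genes for mTORC1, S6 kinases and MNK kinases 0 rose and 2 fell. That is 16.7% called, below the 27.9% of all genes tested. Larp1, which binds TOP mRNAs, was at 91.5, 76.2 and 68.9 against 117, 126 and 129.5 CPM, a log2 fold change of -0.65 (SE 0.13, edgeR adjusted p = 0.00739). Mknk2, a kinase of eIF4E, was at -0.69 (SE 0.15, edgeR adjusted p = 0.00925). Both fell without overlap of the libraries.

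Of 8 genes that modify eIF5A and eEF2 after translation 3 rose and 1 fell, together 50% against 27.9% of all genes tested. Dohh, the enzyme of the last step to hypusine on eIF5A, was at 59.8, 73.3 and 82.8 against 48.1, 40.4 and 30.8 CPM, a log2 fold change of 0.85 (SE 0.19, edgeR adjusted p = 0.0098), in the same direction as Eif5a. Dhps, the enzyme before it, did not pass (0.33, SE 0.16, edgeR adjusted p = 0.147). Of the diphthamide genes for eEF2, Dph1 was at 8.27, 10.1 and 28.5 against 5.2, 4.02 and 3.02 CPM, a log2 fold change of 1.93 (SE 0.45, edgeR adjusted p = 0.0126). Cluster KO replicate 3 stood far above the other libraries, and without it Dph1 was at 1.17 (SE 0.31, edgeR adjusted p = 0.0305). Dph7 rose (0.90) and Dph3 fell (-0.46), given as log2 fold changes. Of 9 mitochondrial translation factors 3 rose and 0 fell, 33.3% against 27.9% of all genes tested. These were Tufm, the mitochondrial elongation factor Tu, at 0.83, the initiation factor Mtif3 at 1.10 and the recycling factor Mrrf at 0.57.

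Among the genes named from these lists, Eif4a3, Pdcd4, Larp1, Dohh and Tufm kept their calls without any single library. The calls of Dph1, Dph3, Dph7, Gcn1l1, Mknk2, Mrrf, Mtif3, Ppp1r15a and Ppp1r15b were each lost without at least 1 library, and all kept their direction. Mrrf and Ppp1r15b lost theirs in 5 of the 6 such fits, with edgeR adjusted p values of 0.0504 to 0.113 and 0.0863 to 0.14. For the genes of these lists only the fits without 1 library were examined. How their calls depend on length and GC trends or on a replicate block is not given here.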

How the data were processed

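The deposited table gives whole read counts for each Ensembl gene, 1 column per library, without normalization by the authors. Groups come from the sample titles. Per the submitters' processing notes, bcl2fastq, TopHat2, HTSeq and the mm10 build were used. Their versions, annotation release and counting mode: not given in the sources used here. Per the labels' protocols, libraries were poly(A)-based, made with Nextera XT without strand, and 6 were pooled for sequencing, so reads of overlapping genes on opposite strands cannot be told apart. The HTSeq summary rows (per the file's row names), with 13.38 to 16.81% multiply aligned, 7.294 to 11.06% outside genes and 2.709 to 2.947% ambiguous reads, entered neither library sizes nor tests.

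Counts were tested with edgeR 4.0.16 in R 4.3.3: TMM scaling, filterByExpr with a minimum count of 10, robust quasi-likelihood fitting on genotype alone, and Benjamini-Hochberg adjustment at 0.05 over 15686 genes. The SE is the log2 fold change over the square root of F. Ratios used exact permutation tests. The fit was also run on simulated counts, with fewer changed genes than were called here and larger changes than most factor genes showed. That run does not vouch for the calls. Names, positions and lengths (median over basic coding transcripts) came from GENCODE M21 on GRCm38, which 47224 of 47729 genes matched; promoters came from RefSeq (GRCm38.p6), which lacked Eef1d, Eef1g, Eif1a, Eif2b3, Eif3e, Eif3h, Eif3i, Eif4ebp1, Eif4g2, Eif6, Etf1 and Pabpc1. Library totals give a count of 0 an upper limit of 3 counts, 0.128 to 0.17 CPM, for counting error only. No pair of libraries of the same genotype agreed within sampling noise (chi-square per degree of freedom 12.18 to 71.38).

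The named-gene rule accounts for every member, with all libraries' values for called genes, the paralogue pairs Eif4a1 and Eif4a2, Eif1a and Eif1ax, and Eif4ebp1 and Eif4ebp2, and the most abundant member per length of each complex, and up to 4 called genes of each other list. Eif2b3, Eif2b5, Eif5, Eef1d, Eef2k and Gspt1 were given all libraries' values after these were seen. The members, lists, ratios and rule were chosen with earlier results of these data known. Alternatives were other scalings, DESeq2 1.42.0, filters, each library left out, a replicate block, and length and GC trends removed with mgcv 1.9.3.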

Additional observations from a re-analysis of the deposited data

How the results depend on the processing

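Of the factor genes 8 were higher and 14 lower, and leaving out 1 library each gave 3 to 12 higher and 5 to 17 lower; over all genes it gave 1258 to 3151 higher and 742 to 2579 lower, against 2487 and 1895. The lowest counts came without cluster KO replicate 2, wildtype replicate 2 or wildtype replicate 3, where 13, 14 and 11 of the 22 factor calls were lost, and the most came without cluster KO replicate 1. DESeq2 gave 11 higher and 15 lower.

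Samples share replicate numbers, but same-numbered libraries did not deviate together (r = -0.12, 0.02 and -0.09). With 3 libraries per genotype this shows no pairing by number but cannot exclude it. Cluster KO replicate 1 correlated best with wildtype replicate 3 and cluster KO replicate 3 with wildtype replicate 1. With the replicate block 2 factor genes were higher and 6 lower, and of all genes 1331 and 865; with length and GC trends removed as well, 4 and 8 factor genes, and 1200 and 914 of all genes. No eIF2B gene was called with the block, alone or with the trends removed. The cause of these lower counts was not tested.

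The reversed directions were all in genes without a call. With length and GC trends removed, and the same with the replicate block, log2 fold changes were -0.062 and -0.065 for Eif3d, -0.18 and -0.18 for Eif3e, -0.15 and -0.15 for Eif3g, -0.18 and -0.18 for Eif4a2, -0.19 and -0.18 for Eif4h, and -0.36 and -0.36 for Eef1d, the first of which passed (edgeR adjusted p = 0.0151). A minimum count of 50 gave -1e-04 for Eif3g and -0.0094 for Eef1d. Eif3h was at 0.009 with DESeq2 and 0.0081 without a filter. Leaving out 1 library each gave -0.15 to 0.0023 for Eif3b, -0.066 to 0.13 for Eif3g, -0.067 to 0.0103 for Eif3h, -0.051 to 0.11 for Eif4h, -0.0067 to 0.59 for Eif4ebp2 and -0.068 to 0.064 for Eef1d. The cause of the reversals was not tested.

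The other scalings moved the median of all genes by under 0.1. With SEs of 0.09 to 0.23 for factor genes other than Eif4ebp2, the smallest change that passed was -0.31 (Eif2s2), so smaller ones were hard to detect with 3 libraries per genotype.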
